A study of Mus musculus with 6 samples.

Results

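The genes described here are those of the lysosome's cathepsins, its proton pump and its LAMP proteins in mouse brown adipose tissue (BAT). They were the rows of the count table whose symbol was Cts followed by a single small letter, with or without a digit, began with Atp6v, or was Lamp followed by a digit, and whose counts summed to at least 10 over the 6 libraries. Of 35976 rows, 45 had such a symbol and 35 reached the minimum: 14 cathepsin genes, 10 genes of the pump's V1 sector, 9 of its V0 sector and 2 LAMP genes. Of the other 10, 7 had no count in any library (Atp6v1e2, Atp6v1g3, Ctsj, Ctsm, Ctsq, Ctsr and Lamp5), and Atp6v0a4, Lamp3 and Atp6v1b1 had fewer than 10.

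BAT was taken from 3 WT and 3 sST2-KO mice for RNA-seq, to ask what the lack of soluble ST2 changes in BAT whose nerves are cut. All 6 mice were of C57BL/6J background and 10 weeks old. The sST2-KO mice carried a CRISPR deletion in Il1rl1 designed to remove the soluble form of the IL-33 receptor ST2, and the WT controls came from the same heterozygous crosses. In both groups the nerves of the BAT had been cut surgically, the mice had been kept at 30 °C for 7 days, and they were then exposed to 10 °C for 8 h. So every library, the controls included, is from denervated BAT in the cold, and the deletion was present in all cells of the knockout mice.

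Lysosomes are acidic compartments in which proteins, lipids and sugars that reach the cell by endocytosis or autophagy are broken down. The acid is made by the V-ATPase, a rotary proton pump with a V1 sector in the cytosol that splits ATP and a V0 sector in the membrane that carries protons. Cathepsins are the proteases that work in this acid, and LAMP1 and LAMP2 are the heavily glycosylated proteins that cover the lysosomal membrane. Many lysosomal genes carry an E-box in their promoters that the transcription factors TFEB and TFE3 bind, whereas some cathepsins are known mainly from leukocytes, such as cathepsin S from antigen-presenting cells and cathepsins C and W from cytotoxic cells.

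Promoters are printed below for 3 cathepsin genes on which the results turn (Ctss, Ctsc and Ctsf) and for 3 lysosomal genes found in most cells, to show which of these elements each holds. They are RefSeq promoters of build GRCm38.p6, printed 5′ to 3′ on the gene's own strand, from 250 bases before the start of transcription to 30 bases after it. Capitals in Ctss and Ctsc mark the PU.1 element GAGGAAGT, which appears as its reverse complement in the lines below. In Ctss and Lamp1 they also mark an interferon element, a pair of GAAA runs with 2 bases between them, which is the first run of capitals in each and is read on the other strand in Lamp1. The remaining capitals in Lamp1 and those in Ctsf, Ctsd and Atp6v0d1 mark the E-box CACGTG, with the 2 flanking bases of GTCACGTG where they are present.
Ctss (chr3:95526536-95526815, plus strand): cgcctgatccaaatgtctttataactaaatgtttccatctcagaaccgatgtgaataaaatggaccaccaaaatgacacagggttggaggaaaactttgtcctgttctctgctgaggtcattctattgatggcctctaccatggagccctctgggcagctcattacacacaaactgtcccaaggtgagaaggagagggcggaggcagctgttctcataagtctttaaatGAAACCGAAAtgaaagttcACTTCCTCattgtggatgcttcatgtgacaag
Ctsc (chr7:88277835-88278114, plus strand): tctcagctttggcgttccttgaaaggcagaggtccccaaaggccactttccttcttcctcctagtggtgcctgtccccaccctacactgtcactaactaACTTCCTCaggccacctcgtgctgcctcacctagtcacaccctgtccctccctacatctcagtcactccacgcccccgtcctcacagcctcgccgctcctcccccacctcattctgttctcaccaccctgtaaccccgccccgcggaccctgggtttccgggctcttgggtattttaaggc
Ctsf (chr19:4854915-4855194, plus strand): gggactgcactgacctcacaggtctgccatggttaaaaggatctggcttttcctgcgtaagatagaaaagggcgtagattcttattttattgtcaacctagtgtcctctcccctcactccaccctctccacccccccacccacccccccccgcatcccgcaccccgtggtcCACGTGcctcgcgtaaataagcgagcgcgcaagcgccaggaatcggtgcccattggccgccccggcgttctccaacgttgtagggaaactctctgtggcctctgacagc
Ctsd (chr7:142387798-142388077, minus strand): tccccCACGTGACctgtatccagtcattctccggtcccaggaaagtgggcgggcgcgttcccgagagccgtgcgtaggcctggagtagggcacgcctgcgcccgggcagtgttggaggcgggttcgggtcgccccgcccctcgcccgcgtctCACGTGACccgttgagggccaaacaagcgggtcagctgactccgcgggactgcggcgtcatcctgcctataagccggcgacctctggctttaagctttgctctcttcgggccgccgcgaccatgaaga
Lamp1 (chr8:13158911-13159190, plus strand): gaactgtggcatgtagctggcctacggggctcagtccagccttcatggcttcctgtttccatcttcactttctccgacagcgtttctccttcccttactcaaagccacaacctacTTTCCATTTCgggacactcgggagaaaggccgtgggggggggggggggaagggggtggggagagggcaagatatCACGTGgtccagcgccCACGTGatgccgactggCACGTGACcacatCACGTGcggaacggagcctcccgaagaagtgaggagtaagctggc
Atp6v0d1 (chr8:105566035-105566314, minus strand): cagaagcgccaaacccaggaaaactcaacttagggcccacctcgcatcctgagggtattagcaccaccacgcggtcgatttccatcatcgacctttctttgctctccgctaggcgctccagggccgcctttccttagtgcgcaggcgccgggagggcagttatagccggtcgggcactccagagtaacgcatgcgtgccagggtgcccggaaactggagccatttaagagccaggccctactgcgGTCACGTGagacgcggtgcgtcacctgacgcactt

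A promoter of this table matched 24 of the 35 genes by symbol, and those of the other 11, Ctsw among them, were not analysed here. Motifs were searched on both strands in 300 bases, from 250 before to 50 after the start, and each was picked with the genes' values already known. CACGTG was found in 9 of the 24 promoters (37.5%) and in 8.09% of the 27025 promoters in the table. The 9 were those of Ctsa, Ctsd, Ctsf, Ctsl, Lamp1, Atp6v0b, Atp6v0d1, Atp6v0e and Atp6v1a, and Lamp1 held 4 copies. The longer form GTCACGTG, which contains CACGTG, was found in 5 of the 24 (20.8%) and in 2.55% of all promoters. GAGGAAGT was found in 2 of the 24 (8.33%), Ctss and Ctsc, against 3.69% of all promoters, and the interferon element in 4 (16.7%), Ctss, Lamp1, Atp6v1d and Ctso, against 3.99%. The AP-1 element TGACTCA and the cAMP response element TGACGTCA were found in 0 of the 24, against 5.95% and 2.03% of all promoters. These matches describe letters in the windows and were not tested against the expression values.

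The libraries held between 8159442 and 12874809 counts. Values below are CPM, the counts relative to library size after scaling by edgeR's TMM factors. Where 3 values of a group are given, they are those of replicates 1, 2 and 3 in this order. Differences between the groups were tested with the quasi-likelihood test of edgeR, with p adjusted by Benjamini-Hochberg over the 14542 genes tested, and SE stands for standard error, here of log2 fold changes. Il1rl1, the targeted gene, had 19, 19 and 6 counts in WT and 55, 69 and 142 counts in sST2-KO. These counts sum the soluble and the membrane form and so do not check the genotype. Brown adipocyte markers were present in every library, with a summed level of 7892 to 14750 CPM in WT mice and 344 to 1749 CPM in sST2-KO mice. WT replicate 2 held 33870 counts of the liver gene Alb, where the other libraries held 11 to 254. Skeletal muscle markers summed to 1396, 74.2 and 66.7 CPM in WT and 7110, 3899 and 16240 CPM in sST2-KO. In whole tissue, a change in the number of cells of a type and a change in RNA per cell cannot be told apart.

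Cathepsin W and cathepsin C rose in the BAT of sST2-KO mice, cathepsin F fell, and the main housekeeping cathepsins, both LAMP genes and nearly the whole proton pump did not pass the test. Of the 35 genes, 33 passed the expression filter and 4 of these were called at an adjusted p under 0.05 (12.1%), where 19.6% of all genes tested were called. Ctsw and Ctsc were higher (6.06%, against 10.5% of all genes), and Ctsf and the V1 gene Atp6v1e1 were lower (6.06%, against 9.10% of all genes). With a fold change above 2 as well, 3 of the 33 were called (9.09%), against 16.1% of all genes: Ctsw and Ctsc higher, where 9.04% of all genes were, and Ctsf lower, where 7.10% were. In 8 of the 33 genes the groups did not overlap, against 41.5% of all genes tested, with Ctsw, Ctsc and Ctss higher, against 21.8%, and Ctsf, Atp6v1e1, Atp6v0e, Atp6v1f and Atp6v1h lower, against 19.7%. These shares were below those of all genes, but the difference was not tested and depended on the setting: DESeq2 called 7 of 35 (20%, against 21.6% of all genes), with 11.4% against 10.2% for lower calls, and without an expression filter 4 of 35 were called (11.4%, against 12.0%), with 8.57% against 6.59% for higher calls. The calls depended on single libraries. Without WT replicate 3, edgeR called 0 of 34 tested genes, with 4 at an unadjusted p under 0.05, and 0.384% of all genes were called. Without sST2-KO replicate 3, Ctsw and Ctsf were called, 2 of 34, against 9.51% of all genes.

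**Figure D1:**
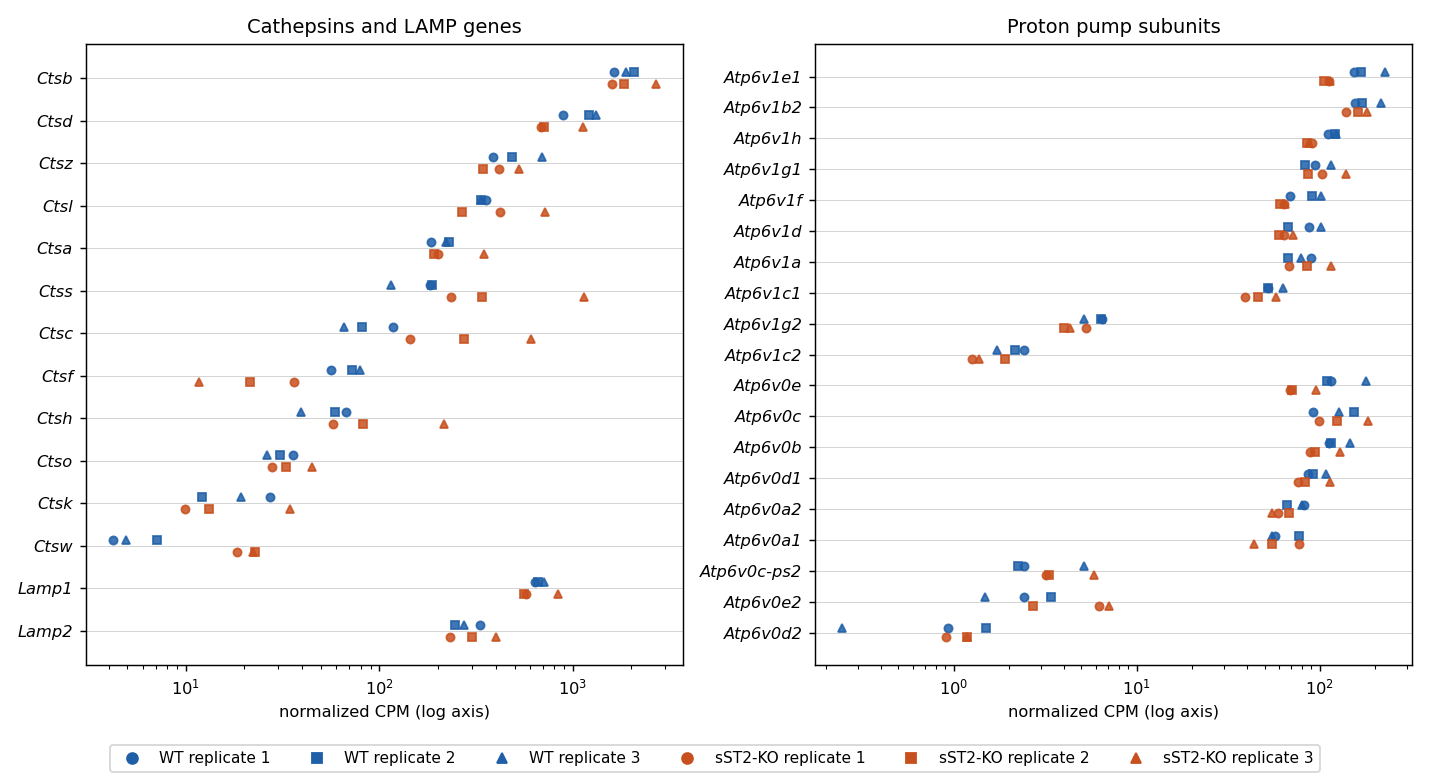
Normalized CPM (log axis) of the 33 tested genes in each library, with cathepsin and LAMP genes on the left and proton pump subunits on the right; blue points are the 3 WT libraries, orange points the 3 sST2-KO libraries, and the shape gives the replicate number. Ctsw, Ctsc and Ctss lie higher and Ctsf lower in all 3 sST2-KO libraries, and the orange triangle, sST2-KO replicate 3, is the highest of the 6 in 16 of the 33 genes.

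Among the cysteine cathepsins, Ctsw encodes a papain-like protease made by cytotoxic T cells and natural killer cells. Its level was 4.20, 7.07 and 4.93 CPM in WT and 18.5, 22.9 and 22.2 CPM in sST2-KO. The groups were well apart, and the 3 sST2-KO values lay close together. The mean rose from 5.40 ± 1.49 (SD, n = 3) to 21.2 ± 2.39 CPM (SD, n = 3), with a log2 fold change of 1.97 (SE 0.27, edgeR adjusted p = 0.0125). Only the removal of WT replicate 3, among the 6 libraries left out in turn, ended the call (edgeR adjusted p = 0.0610). Ctsw lies at chr19:5515071-5518535 of GRCm39 on the minus strand and shares 15 bp of exons with Fibp on the other strand, which had 26.9 to 35.4 CPM in the 6 libraries.

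Ctsc encodes the dipeptidyl peptidase that activates granzymes and the serine proteases of neutrophils and mast cells. It had 118, 81.0 and 66.0 CPM in WT and 145, 272 and 605 CPM in sST2-KO. The groups did not overlap, but sST2-KO replicate 1 lay close to WT replicate 1 and the sST2-KO values spread over a wide range. The log2 fold change was 1.95 (SE 0.52, edgeR adjusted p = 0.0381), with a 95% interval from 0.75 to 3.15. Without sST2-KO replicate 3 it was 1.24, and the adjusted p lay between 0.0599 and 0.144 in this fit and in those without sST2-KO replicate 2 or WT replicate 1, 2 or 3.

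Ctss, the cathepsin that trims the invariant chain of MHC class II, had 182, 188 and 115 CPM in WT and 235, 339 and 1142 CPM in sST2-KO. All 3 sST2-KO values were above all WT values, and sST2-KO replicate 3 stood far above the rest. The log2 fold change was 1.82 (SE 0.59, edgeR adjusted p = 0.0663), which missed the threshold. The log2 fold change with sST2-KO replicate 3 left out was 0.82, and with sST2-KO replicate 1 left out it was 2.19 and was called (edgeR adjusted p = 0.0375). Ctsh, an aminopeptidase of lysosomes, was also highest in sST2-KO replicate 3, with 67.0, 59.3 and 39.2 CPM in WT and 57.4, 82.6 and 215 CPM in sST2-KO. Its groups overlapped and its log2 fold change was 1.10 (SE 0.48, edgeR adjusted p = 0.147).

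Macrophage markers gave 951, 790 and 681 summed CPM in WT and 940, 1017 and 3230 summed CPM in sST2-KO. Their highest library was that of Ctss, Ctsc and Ctsh. Of the 12 markers tested, 10 had a positive and 2 a negative log2 fold change, the lowest -1.26. Itgam and Fcgr1 were called, both higher (16.7%, where 10.5% of all genes tested were called higher). A single marker was lower at an unadjusted p under 0.05. Cytotoxic lymphocyte markers gave 49.7 to 74.7 summed CPM in WT mice and 722 to 1068 summed CPM in sST2-KO mice, and 10 of 11 were called higher. These sums and Ctsw were both higher in all 3 sST2-KO libraries. Within sST2-KO the sums were 722, 1068 and 760 CPM, ranked as Ctsw was. Within WT, where Ctsw had 45, 75 and 40 counts, the library with the highest sum, replicate 1, had the lowest Ctsw. Neutrophil markers gave 33.7 to 163 summed CPM in WT mice and 166 to 795 in sST2-KO mice, with 4 of 12 called higher. Mast cell markers gave 80.1 to 168 and 103 to 252 summed CPM, with 0 of 6 tested called by edgeR, 3 at an unadjusted p under 0.05 and 4 called by DESeq2. Dendritic cell markers gave 49.5 to 67.2 and 50.04 to 68.8 summed CPM, with 2 of 5 tested called higher. Among these 5, 1 was lower without overlap and at an unadjusted p under 0.05, with a log2 fold change of -0.97. Of 7 markers of osteoclasts and fused macrophages, 3 were tested and 2 were called higher, and Dcstamp was at 0 in every library. The other tested marker, Acp5, was lower without overlap, with a log2 fold change of -0.61 (edgeR adjusted p = 0.110). Mmp9 stood both in this list and in the neutrophil list. Fibroblast markers gave 6408, 2089 and 2443 summed CPM in WT and 1247, 2405 and 10340 summed CPM in sST2-KO, so they too were highest in sST2-KO replicate 3. The part of these cell types in the cathepsin values was not tested.

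**Figure D2:**
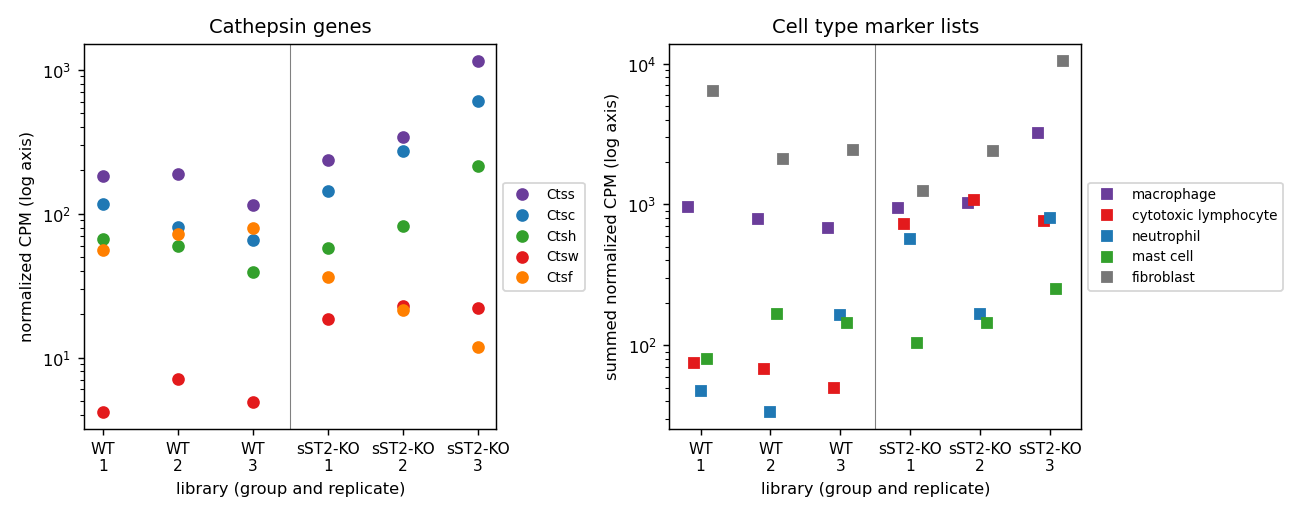
Left, normalized CPM of 5 cathepsin genes in each library; right, summed normalized CPM of 5 lists of cell type markers in the same libraries (log axes, 1 point per library, WT to the left of the line). Ctss, Ctsc, Ctsh and the macrophage, neutrophil, mast cell and fibroblast sums are highest in sST2-KO replicate 3, whereas Ctsw and the cytotoxic lymphocyte sum are high in all 3 sST2-KO libraries.

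Ctsf encodes a broadly expressed cysteine cathepsin. Its level was 56.3, 72.1 and 79.8 CPM in WT and 36.2, 21.4 and 11.8 CPM in sST2-KO. All 3 sST2-KO values were below all WT values, with the lowest in sST2-KO replicate 3, where Ctss and Ctsc were highest. It fell from 69.4 ± 11.9 (SD, n = 3) to 23.1 ± 12.3 CPM (SD, n = 3), with a log2 fold change of -1.58 (SE 0.38, edgeR adjusted p = 0.0305). Without WT replicate 2 or 3 or sST2-KO replicate 2 the call was lost (edgeR adjusted p 0.0742 to 0.110), and the log2 fold change with sST2-KO replicate 1 left out was -2.07. Ctsf lies at chr19:4905118-4915986 of GRCm39 on the plus strand, and 1355 bp of its annotated exons overlap those of the muscle gene Actn3 on the minus strand. Actn3 moved the other way, with 436, 7 and 1 counts in WT and 3668, 974 and 6985 counts in sST2-KO. The kit named in the labels does not mark strand, so reads of the overlap cannot be told apart between these genes. The part of this overlap in the Ctsf value was not tested.

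Per kilobase of transcript, the most abundant genes in WT mice were Ctsd, the aspartic protease cathepsin D, at 532 CPM per kilobase, and Ctsb, the cysteine protease cathepsin B, at 388 CPM per kilobase. Ctsd had 887, 1203 and 1307 CPM in WT and 682, 710 and 1129 CPM in sST2-KO. Its groups overlapped, and the log2 fold change was -0.43 (95% interval -1.14 to 0.28). The annotation places 808 bp of Ctsd exons in Gm49369 on the same strand too, so its counts may be incomplete. Ctsl likewise shares 395 bp with Gm49230. Several members share exons with genes on the other strand, among them Lamp1 (Grtp1, 2564 bp), Ctso (Tdo2, 2004 bp) and Ctsl (Gm47123, 1742 bp). Others are Ctsa (Pltp, 1252 bp), Ctsb (Fdft1, 1184 bp) and Ctsz (Nelfcd, 1084 bp). The part of these overlaps in the values was not tested. Ctsb had 1626, 2070 and 1869 CPM in WT and 1581, 1824 and 2678 CPM in sST2-KO. The lowest and the highest of these were both sST2-KO libraries, and the log2 fold change was 0.13 (95% interval -0.58 to 0.84).

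The other 5 tested cathepsins overlapped between the groups. Ctsl, a broadly expressed cysteine protease, had 336 to 355 CPM in WT mice and 266, 422 and 719 CPM in sST2-KO replicates 2, 1 and 3, a log2 fold change of 0.45 (95% interval -0.38 to 1.29). The carboxypeptidases Ctsz and Ctsa had log2 fold changes of -0.28 and 0.22, and Ctso had 0.19. Ctsk, the collagen-degrading cathepsin of osteoclasts and fibroblasts, had 12.2 to 27.2 CPM in WT mice and 9.97 to 34.4 CPM in sST2-KO mice, a log2 fold change of -0.03 whose 95% interval ran from -1.20 to 1.13. The adjusted p of these 5 lay between 0.397 and 0.973. Of the 12 tested cathepsins, 8 had a positive and 4 a negative log2 fold change, with a median of 0.20 against 0.034 over all genes tested. With scaling by total counts, 10 were positive and 2 negative, with a median of 0.47 against 0.29. Without sST2-KO replicate 3 the median was -0.07, with 4 positive and 8 negative.

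The remaining pair was left out by the expression filter. Ctsg, a serine protease of neutrophil and mast cell granules, had 1 count in each WT library and 23, 2 and 8 counts in sST2-KO. Ctse, an aspartic protease of endosomes, had 4, 2 and 1 counts in WT and 13, 9 and 3 counts in sST2-KO. Both were near the limit of detection, and no fold change is given for them.

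The LAMP genes overlapped between the groups. Lamp1 had 633, 656 and 706 CPM in WT and 574, 556 and 833 CPM in sST2-KO. The log2 fold change was -0.02 (95% interval -0.61 to 0.56). Lamp2 had 331, 246 and 273 CPM in WT and 231, 299 and 399 CPM in sST2-KO, a log2 fold change of 0.13 (95% interval -0.48 to 0.74). For both genes the interval excluded a change of 2-fold in either direction, and the highest value of each was that of sST2-KO replicate 3.

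**Figure D3:**
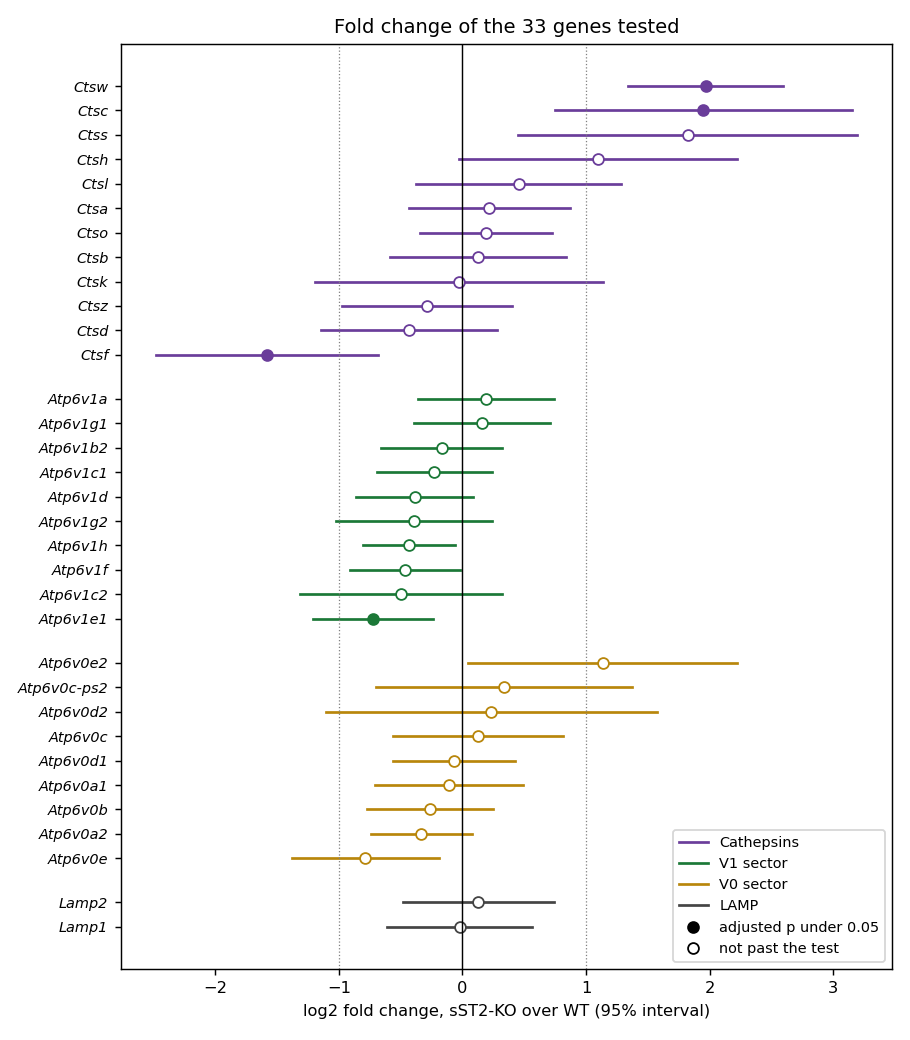
Log2 fold change of sST2-KO against WT with its 95% interval for the 33 tested genes, ordered within each family (edgeR's quasi-likelihood test, 3 against 3 libraries); filled points are the 4 genes called at an adjusted p under 0.05. Ctsw at 1.97, Ctsc at 1.95 and Ctss at 1.82 are at the upper end, Ctsf at -1.58 at the lower end, and most subunits of the pump lie within 1 of 0.

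In the V1 sector, which splits ATP, Atp6v1e1 fell. It encodes the widespread form of subunit E, part of the peripheral stalks that hold the catalytic head in place. Its level was 154, 168 and 228 CPM in WT and 112, 106 and 115 CPM in sST2-KO. The groups did not overlap, and the sST2-KO values were nearly equal. The mean fell from 183 ± 39.7 (SD, n = 3) to 111 ± 4.26 CPM (SD, n = 3), with a log2 fold change of -0.73 (SE 0.21, edgeR adjusted p = 0.0485). This call lay at the threshold and was lost without any library other than WT replicate 1 (edgeR adjusted p 0.0878 to 0.168). It was also lost with scaling by total counts (edgeR adjusted p = 0.126) and without an expression filter (0.0685). Atp6v1e1 lies at chr6:120768646-120799807 of GRCm39 on the minus strand and shares 2819 bp of annotated exons with Slc25a18 on the other strand, which had 9 to 23 counts in the 6 libraries.

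Atp6v1h and Atp6v1f, whose products regulate the head and sit in the central rotor, also had no overlap between the groups but did not pass edgeR's test. Atp6v1h had 112, 122 and 123 CPM in WT and 90.8, 85.4 and 87.2 CPM in sST2-KO, a log2 fold change of -0.43 (edgeR adjusted p = 0.0931, DESeq2 adjusted p = 0.0460). Atp6v1f had 69.0, 90.9 and 102 CPM in WT and 63.9, 60.8 and 64.9 CPM in sST2-KO, a log2 fold change of -0.46 (edgeR adjusted p = 0.127). In both genes the 3 sST2-KO values lay closer to each other than the WT values. The catalytic subunit gene Atp6v1a had a log2 fold change of 0.19 (95% interval -0.36 to 0.74), and its partner Atp6v1b2 one of -0.17 (95% interval -0.66 to 0.32). Atp6v1d, Atp6v1c1 and Atp6v1g1 had log2 fold changes of -0.39, -0.23 and 0.16. The less abundant isoform genes Atp6v1g2 and Atp6v1c2 had -0.39 and -0.49, at mean levels of 6.01 and 2.11 CPM in WT mice. Of the 10 V1 genes, 8 had a negative and 2 a positive log2 fold change, with a median of -0.39, and 7 had a 95% interval that excluded a change of 2-fold.

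In the V0 sector, which carries the protons, 0 of 9 genes were called by edgeR, 2 had an unadjusted p under 0.05 and 1 was called by DESeq2. These were Atp6v0e, for the small subunit e, and its paralog Atp6v0e2, which differed in sign. Atp6v0e had 115, 110 and 180 CPM in WT and 68.9, 70.7 and 95.4 CPM in sST2-KO, without overlap. The log2 fold change was -0.79 (SE 0.26, edgeR adjusted p = 0.0674, DESeq2 adjusted p = 0.0330). Atp6v0e2 had 2.43, 3.39 and 1.48 CPM in WT and 6.27, 2.73 and 7.11 CPM in sST2-KO, which overlapped, and its log2 fold change was 1.14 (SE 0.47, edgeR adjusted p = 0.125).

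Per kilobase, Atp6v0e2 amounted to 0.806%, 1.18% and 0.315% of Atp6v0e in WT and to 3.48%, 1.48% and 2.85% in sST2-KO. So Atp6v0e stayed the main form in every library, and the percentages did not overlap between the groups. Atp6v0e2 shares 965 bp of annotated exons with Gm67220 on the other strand, and Atp6v0e 161 bp with ENSMUSG00000144324 on the same strand. The part of these overlaps in the percentages was not tested. The log2 ratio was higher by 1.87 in sST2-KO mice (exact two-sided permutation test over 3 against 3 libraries, p = 0.1, the smallest this design can give, and 0.4 when adjusted over the 4 ratios tested). The ratios of Atp6v0a2 to Atp6v0a1, Atp6v1c2 to Atp6v1c1 and Atp6v1g2 to Atp6v1g1 differed by -0.20, -0.25 and -0.55 on the log2 scale (exact p 0.5, 0.5 and 0.3). Atp6v0d2, a form of subunit d known from osteoclasts and macrophages, was at 0.694% to 1.10% of Atp6v0d1 in the 5 libraries where it had at least 3 counts.

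Of the other V0 genes, Atp6v0c encodes the proteolipid of the rotating ring and had 92.5 to 155 CPM in WT mice and 98.6 to 184 CPM in sST2-KO mice. Its log2 fold change was 0.12 (95% interval -0.56 to 0.81). Atp6v0c-ps2 is a processed pseudogene of Atp6v0c with 24 to 59 counts per library, and its reads may come from Atp6v0c, so its value is uncertain. Atp6v0b, Atp6v0d1, Atp6v0a1 and Atp6v0a2 had log2 fold changes of -0.26, -0.07, -0.11 and -0.33, and Atp6v0d2 had 0.23 at less than 2 CPM in every library. The median of the 9 was -0.07, with 4 positive and 5 negative values, but 0.21 with scaling by total counts.

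Over all 33 tested genes, 15 log2 fold changes were positive and 18 negative, with a median of -0.03 (0.23 with scaling by total counts, which moved the median of all genes from 0.034 to 0.29), and in 18 of the 33 the 95% interval excluded a change of 2-fold. The summed level of the 35 genes was 6268, 7124 and 7494 CPM in WT and 5803, 6175 and 10180 CPM in sST2-KO. The highest and the lowest sums were thus both from sST2-KO mice. Without sST2-KO replicate 3, 7 of 33 log2 fold changes were positive and 26 negative, with a median of -0.24. This library was the highest of the 6 in 16 of the 33 genes and in 4077 of the 14542 genes tested.

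The other genes of the lysosome were counted from 6 lists, and the called genes, the most abundant ones and 2 genes picked after their values were seen were named. The lists held 18 called genes in all, and the number that lost the call was 8, 12 and 18 without WT replicate 1, 2 or 3 and 2, 6 and 7 without sST2-KO replicate 1, 2 or 3. Scaling by total counts ended the calls of Hyal2, Scarb2, Smpd1 and Sort1 (edgeR adjusted p 0.0697 to 0.101). Of 43 tested genes in the hydrolase list, 0 were called higher, against 10.5% of all genes. At an unadjusted p under 0.05, 7 were higher, and DESeq2 called 2 higher. Lower calls by edgeR numbered 3 (6.98%, against 9.10% of all genes), and the median log2 fold change was 0.10. The hyaluronidase gene Hyal1 had 6.25, 9.80 and 7.64 CPM in WT and 1.74, 3.09 and 1.48 CPM in sST2-KO. It fell without overlap, by 1.92 on the log2 scale (SE 0.38, edgeR adjusted p = 0.0185). Smpd1, the acid sphingomyelinase gene, and the hyaluronidase gene Hyal2 had log2 fold changes of -1.19 and -0.77 and were also called (edgeR adjusted p = 0.0497 and 0.0346). Without WT replicate 3 none of the 3 was called (edgeR adjusted p 0.0734 to 0.171). Hyal1 was lost also without WT replicate 2, Smpd1 without every library but sST2-KO replicate 1, and Hyal2 without every library but WT replicate 1 and sST2-KO replicate 2. Psap, the saposin precursor gene, had a log2 fold change of -0.10, and Lgmn, the asparaginyl endopeptidase that processes cathepsins, one of 1.20 (edgeR adjusted p = 0.0712).

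Of 33 tested genes in the list of lysosomal membrane proteins, 3 were called higher and 1 lower (12.1%, against 19.6% of all genes). The median was -0.08. Slc11a1, the NRAMP1 metal transporter of phagocytes, had 17.4, 25.2 and 18.3 CPM in WT and 53.0, 55.7 and 209 CPM in sST2-KO. It rose without overlap, with a log2 fold change of 2.38 (SE 0.56, edgeR adjusted p = 0.0278). The peptide transporter gene Slc15a3 and the leukocyte gene Laptm5 had log2 fold changes of 2.24 and 1.49 (edgeR adjusted p = 0.0234 and 0.0453). All 3 were highest in sST2-KO replicate 3, the library with the highest macrophage, neutrophil, mast cell, fibroblast and skeletal muscle sums. The log2 fold change of Slc11a1 was 1.41 and that of Laptm5 0.89 with this library left out, where Laptm5 was not called (edgeR adjusted p = 0.0758). Without WT replicate 3 the adjusted p of the 3 lay between 0.1002 and 0.163. All 3 lost the call also without WT replicate 1 or 2 (edgeR adjusted p 0.0511 to 0.102), and Laptm5 without sST2-KO replicate 2 (0.0658). Scarb2, the receptor that carries glucocerebrosidase to lysosomes, was named after its value was seen and had 250 to 266 CPM in WT mice and 140 to 167 CPM in sST2-KO mice, a log2 fold change of -0.74 (edgeR adjusted p = 0.0314). This call was lost whichever library was left out (edgeR adjusted p 0.0518 to 0.111) and without an expression filter (0.0508). The most abundant genes of this list, Npc2, which encodes a soluble cholesterol carrier, and Laptm4a, had log2 fold changes of -0.07 and -0.02.

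Of 16 accessory and assembly factors of the pump, 0 were called, against 19.6% of all genes, and the median was 0.20. At an unadjusted p under 0.05 there were 3, and 1 was called by DESeq2. That one was Tcirg1, which encodes the a3 form of the V0 subunit a and is known from osteoclasts and immune cells, and whose symbol lies outside the Atp6v names. It had 80.6, 84.2 and 45.0 CPM in WT and 120, 128 and 237 CPM in sST2-KO. The groups did not overlap, and the log2 fold change was 1.21 (SE 0.35, edgeR adjusted p = 0.0502, DESeq2 adjusted p = 0.0108). Atp6ap1, the most abundant accessory subunit gene, had a log2 fold change of 0.10.

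Of 9 tested cathepsin inhibitors, 4 were called higher (44.4%, against 10.5% of all genes) and 0 lower, with a median of 1.39. WT counts were 3, 2 and 4 for Stfa2l1, 5, 16 and 6 for Cst7 and 8, 7 and 5 for Cst6. These genes reached the expression filter through the sST2-KO libraries, and the median is the value of Cst6. The share and the median thus depend on the filter and do not describe the list as a whole. No inhibitor was lower at an unadjusted p under 0.05 or by DESeq2, which called 7 higher. Serpinb1a, an inhibitor of neutrophil serine proteases including cathepsin G, had 3.64, 2.36 and 1.85 CPM in WT and 14.4, 22.7 and 44.7 CPM in sST2-KO, a log2 fold change of 3.36 (edgeR adjusted p = 0.0136). Cst7, the leukocyte cystatin F that inhibits cathepsin C, had 0.466, 1.51 and 0.740 CPM in WT and 4.11, 7.001 and 7.60 CPM in sST2-KO. Its groups did not overlap, and its log2 fold change was 2.76 (edgeR adjusted p = 0.0162). The stefin gene Stfa2l1 had a log2 fold change of 4.66 from under 0.5 CPM in every WT library, and Serpina3g, named after its value was seen, one of 2.42. Without WT replicate 3 these 4 had adjusted p values of 0.0615 to 0.0926. Stfa2l1 lost the call also without WT replicate 1 or 2 (edgeR adjusted p = 0.0713 and 0.0861). Cst3, the abundant secreted cystatin C, had 830 to 1379 CPM in WT mice and 577 to 959 CPM in sST2-KO mice, a log2 fold change of -0.58 (edgeR adjusted p = 0.235), and Ctla2a one of 0.61 (edgeR adjusted p = 0.0503). Neutrophil and cytotoxic lymphocyte markers were higher in the same libraries, as given above, and their part in these values was not tested.

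Of 18 transcription factors and nutrient-sensing genes, 2 were called higher and 2 lower (22.2%, against 19.6% of all genes). The median was -0.27. Flcn, the folliculin gene whose product acts on the Rag GTPases that hold TFE3 in the cytosol, had 250, 314 and 381 CPM in WT and 108, 71.8 and 44.3 CPM in sST2-KO. It fell without overlap, by 2.07 on the log2 scale (SE 0.35, edgeR adjusted p = 0.0151). Mtor, the kinase of the complex that works at the lysosomal surface, had 120, 138 and 184 CPM in WT and 55.0, 60.2 and 34.7 CPM in sST2-KO. Its log2 fold change was -1.56 (SE 0.27, edgeR adjusted p = 0.0154). Tfec, a macrophage member of the TFEB family, had a log2 fold change of 2.76 (edgeR adjusted p = 0.0455), and Fnip2, a folliculin partner named after its value was seen, one of 1.27 (edgeR adjusted p = 0.0408). Rragc, a Rag GTPase gene, had -0.61 (edgeR adjusted p = 0.0664). Without WT replicate 3 the adjusted p of the 4 called genes was 0.0646 to 0.147. Tfec and Fnip2 lost the call without every library but sST2-KO replicate 1 (edgeR adjusted p 0.0538 to 0.147). With sST2-KO replicate 3 left out Fnip2 had a log2 fold change of 0.79 (edgeR adjusted p = 0.0727). Tfeb and Tfe3, named after their values were seen because their proteins bind the E-box shown above, had log2 fold changes of -0.27 and 0.28 (edgeR adjusted p = 0.582 and 0.328).

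Of 22 genes for delivery to lysosomes, 2 were called higher and 1 lower (13.6%, against 19.6% of all genes). The median was -0.06. Gnptab, which encodes the enzyme that puts the mannose 6-phosphate tag on cathepsins and other hydrolases, had 22.6, 21.3 and 17.9 CPM in WT and 47.6, 39.9 and 60.8 CPM in sST2-KO. The groups did not overlap, and its log2 fold change was 1.26 (SE 0.21, edgeR adjusted p = 0.0150). Of the sorting receptors, Sorl1 had a log2 fold change of 1.40 (edgeR adjusted p = 0.0172) and Sort1, the sortilin gene, one of -0.89 (edgeR adjusted p = 0.0300). Without WT replicate 3 the adjusted p of these 3 was 0.0618 to 0.110. Sorl1 lost the call also without WT replicate 2 (edgeR adjusted p = 0.0570). Sort1 lost it also without WT replicate 2 or sST2-KO replicate 2 or 3 (edgeR adjusted p 0.0682 to 0.0946). The mannose 6-phosphate receptor gene M6pr and the late endosome GTPase gene Rab7 had log2 fold changes of 0.42 and 0.18 and were not called.

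**Figure D4:**
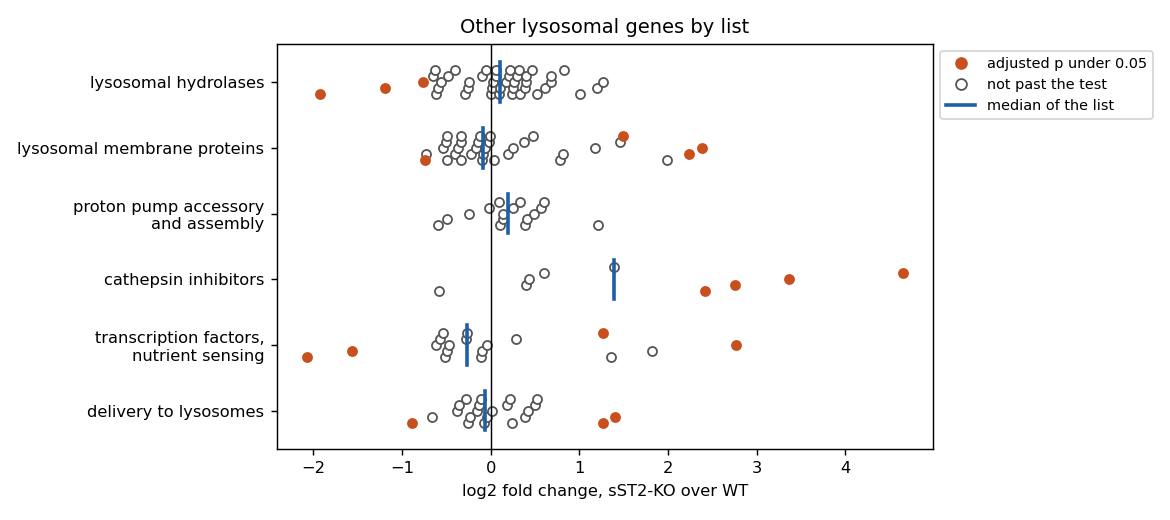
Log2 fold change of sST2-KO against WT for the tested genes of 6 lists of other lysosomal genes; 1 point is 1 gene, filled where its adjusted p was under 0.05, and the vertical bar is the median of the list. The medians run from -0.27 for transcription factors and nutrient sensing to 1.39 for cathepsin inhibitors, and the other 4 lists lie between -0.08 and 0.20. The median of the inhibitors is the value of Cst6, which reached the expression filter through the sST2-KO libraries.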

How the data were processed

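BAT mRNA of 3 WT and 3 sST2-KO mice was sequenced as paired-end reads. The authors aligned the reads to mm39 with HISAT2 (2.2.1 in the submitters' processing notes, which also list FastQC 0.12.1) and counted them with htseq-count. The deposited table holds counts per gene symbol, without normalization. The annotation and use of strand in counting are not given in the sources used here. Libraries were grouped by their labels, and 0 columns were left unused.

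Counts were analysed in R 4.3.3 with edgeR 4.0.16 (filterByExpr, TMM, quasi-likelihood test without covariates, Benjamini-Hochberg over 14542 genes). Calls were made at an adjusted p under 0.05, also with a fold change above 2. Standard errors are the log2 fold change over the square root of F. Nothing in the labels says how the mice were paired, and p-values measure the spread between these 6 libraries. With 3 against 3, an exact permutation p cannot fall below 0.1.

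The members and lists were chosen with earlier results of these data known. All members were accounted for, and of each list the 3 called genes with the largest change and the 2 most abundant genes were named. Others named say so. Lengths are of canonical transcripts (GENCODE, GRCm39), and promoters are from RefSeq (GRCm38.p6). Fits were tested on simulated data. DESeq2 1.42.0, other scalings (RLE, total counts) and filters, robust estimation, a replicate block and the removal of each library were tried as alternatives.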

Additional observations from a re-analysis of the deposited data

How the results depend on the processing

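The counts of called members, 2 higher and 2 lower, changed with the setting. The members called lower numbered 1 with total counts, with no filter, with at least 10 counts in every sample and with robust estimation (lower calls over all genes 6.13%, 5.36%, 9.52% and 9.14%), and 4 with DESeq2 (11.4% of members, against 10.2% of all genes). Leaving out each library gave 0 to 3 members higher and 0 to 2 lower, or 0 to 3 and 0 to 1 with a fold change above 2 as well, where all genes gave 0.239% to 10.2% higher and 0.146% to 8.04% lower, or 0.239% to 9.38% and 0.146% to 6.74%. The replicate numbers were fitted as a block, which gave 0 members higher and 0 lower, with or without the minimum fold change, 2 and 3 at an unadjusted p under 0.05, and 0 calls over all genes. The correlations of deviations between libraries with the same number were -0.06, 0.22 and -0.32. With 3 libraries per group these cannot settle whether the numbers pair the samples. Scaling by total counts moved the median of all genes from 0.034 to 0.29 and those of the families to 0.47 (cathepsins), -0.13 (V1), 0.21 (V0), 0.32 (LAMP) and 0.23 (all members), but 15 members still lay above and 18 below the median of all genes. The signs of members near 0 turned with it, to 0.25 for Lamp1, 0.013 for Ctsz, 0.11 for Atp6v1b2, 0.015 for Atp6v0b, 0.21 for Atp6v0d1, 0.15 for Atp6v0a1, 0.046 for Atp6v1c1 and 0.23 for Ctsk, and to 0.23 for Laptm4a, 0.20 for Npc2 and 0.17 for Psap among the other genes. Leaving out each library turned the sign of Ctsb (-0.13 to 0.28), Lamp1 (-0.24 to 0.062), Ctsl (-0.0018 to 0.72), Lamp2 (-0.099 to 0.30), Ctsa (-0.12 to 0.35), Atp6v0c (-0.16 to 0.31), Atp6v1g1 (-0.056 to 0.30), Atp6v0d1 (-0.27 to 0.045), Atp6v1a (-0.040 to 0.35), Atp6v0a1 (-0.36 to 0.061), Ctso (-0.029 to 0.33), Ctsk (-0.77 to 0.28), Atp6v0c-ps2 (-0.0037 to 0.80), Atp6v0d2 (-0.17 to 0.81), Atp6ap1 (-0.070 to 0.22), Laptm4a (-0.12 to 0.049), Npc2 (-0.17 to 0.0093), Psap (-0.39 to 0.094) and of the log2 ratio of Atp6v0a2 over Atp6v0a1 (-0.45 to 0.037). With at least 10 counts, Lamp1 had 0.0062 and Laptm4a 0.0070. Ctss was called with total counts (adjusted p = 0.0487), no filter (0.0437) and DESeq2 (0.00654). The causes were not tested. Depth limited Ctsg, Ctse and Atp6v0d2, and counting error is only part of the spread.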
